A study of Homo sapiens with 2 samples.

Results

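The signals described here are those of microRNA genes on a pair of Affymetrix arrays, 1 from control cells and 1 from MTA1-overexpressing cells of NCI-H446, a human cell line derived from small cell lung carcinoma. Both groups were stable transfectants, of a control vector or of an overexpression plasmid for MTA1. The MTA1 protein belongs to NuRD, a complex that remodels chromatin and removes acetyl groups from histones. The sources used here give neither the promoter of the plasmid nor whether each line is a clone or a pool. Members were chosen by their signals on these arrays. They were transcript clusters, the array's gene-level features, whose only platform symbol was that of a microRNA gene and whose higher signal reached a floor. The floor, a log2 signal of 3.62, was the median of the 2-array mean signal over 67528 transcript clusters. Of 1087 microRNA features, 523 reached it, or 48.1%, and they carried 487 symbols. The floor is a midpoint of the array and not a detection call. The rule used the signals themselves, so the values below are a description, and with 1 array per group no difference has a replicate check and no test could be run.

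MicroRNAs are short RNAs cut from hairpins in longer primary transcripts, first in the nucleus by the enzyme DROSHA with its partner DGCR8 and then in the cytoplasm by DICER1. The mature strand guides an Argonaute protein to messenger RNAs that pair with its seed, bases 2 to 8 from the 5′ end, and these messages are translated less or degraded. Many microRNA genes lie in introns of protein-coding genes or in long noncoding host RNAs. In lung cancer miR-21 is known as a microRNA of raised abundance, the let-7 family as a repressor of RAS and other growth genes, and the miR-200 family as a repressor of the ZEB transcription factors. The sources used here do not say which part of a microRNA's transcript the probes match, so primary, precursor and mature RNA cannot be told apart in these signals.

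The mature sequences of selected microRNAs named in the results, with relatives of the same seed, are given first because the results refer to their seeds. The selection does not follow the size of the difference. MIR4679-2, the member furthest apart between the arrays, is not in it. The capitals mark the seed, and the sequences are those of RefSeq on GRCh38.p14, which held 435 of the 487 symbols.
miR-21-5p: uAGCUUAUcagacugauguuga
let-7a-5p: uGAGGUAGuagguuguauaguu
miR-30c-5p: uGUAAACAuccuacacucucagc
miR-30e-5p: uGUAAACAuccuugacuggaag
miR-190a-5p: uGAUAUGUuugauauauuaggu
miR-190b-5p: uGAUAUGUuugauauuggguug
miR-15b-5p: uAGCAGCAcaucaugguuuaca
miR-16-5p: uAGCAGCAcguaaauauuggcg
miR-31-5p: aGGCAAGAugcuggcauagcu
miR-25-3p: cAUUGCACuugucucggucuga
miR-92a-3p: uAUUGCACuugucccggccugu
miR-548f-3p: aAAAACUGuaauuacuuuu
The pairs miR-30c and miR-30e, miR-190a and miR-190b, miR-15b and miR-16, and miR-25 and miR-92a each share 1 seed.

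The arrays were close in scale, with median log2 signals over all features of 3.67 (control) and 3.68 (MTA1). MTA1 itself stood at 7.31 (control) and 9.82 (MTA1), 5.71-fold higher. Of 10 measured markers of small cell lung carcinoma and neuroendocrine cells, 4 reached the floor. They were YAP1, at 10.10 (control) and 10.11 (MTA1), UCHL1, at 5.30 and 5.21, INSM1, at 4.06 and 4.21, and BEX1, at 3.72 and 3.50. BEX1 reached it on the control array only. CHGA, SYP, NCAM1, GRP, DLL3 and POU2F3 were under the floor on both arrays. Of 10 measured markers of blood, endothelial and fibroblast cells, 3 reached the floor, PECAM1, COL1A1 and DCN, none above 4.12. Of the epithelial markers EPCAM, KRT8, KRT18, KRT19 and CDH1, CDH1 alone was under the floor on both arrays. EPCAM was near the floor, at 3.96 and 4.18. KRT8 stood at 13.66 and 14.39, 1.66-fold higher, KRT18 at 12.92 and 13.19, and KRT19 at 5.18 and 6.04, 1.81-fold higher. At 291 transcript clusters a value exceeded 16, which is log2 of the largest reading of a 16-bit scanner. How such values arose was not tested, and the sources name no step for it. Signals of different features depend on their probes, so a signal is compared here between arrays and not as an amount of RNA between genes.

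Over the 523 members the median difference, MTA1 minus control, was -0.016 on the log2 scale, against -0.021 over the 35554 transcript clusters at or above the floor. There were 244 members above 0 and 279 below. The signals of members ran from 2.61 to 19.02 on the control array, with a median of 4.61, and from 2.73 to 18.98 on the MTA1 array, with a median of 4.56. Both arrays reached the floor for 454 members. The other 69 passed through 1 array only, 31 through the control array and 38 through the MTA1 array, and a difference in that direction is then built into their choice. Just inside the floor lay MIR4766, at 3.46 and 3.63 on the control and MTA1 arrays, MIR518C, at 3.58 and 3.63, and MIR374A, at 3.63 and 2.87. Just outside lay MIR4510, at 2.93 and 3.61, MIR125B2, at 3.48 and 3.61, and MIR3691, at 3.61 and 3.60.

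**Figure D1:**
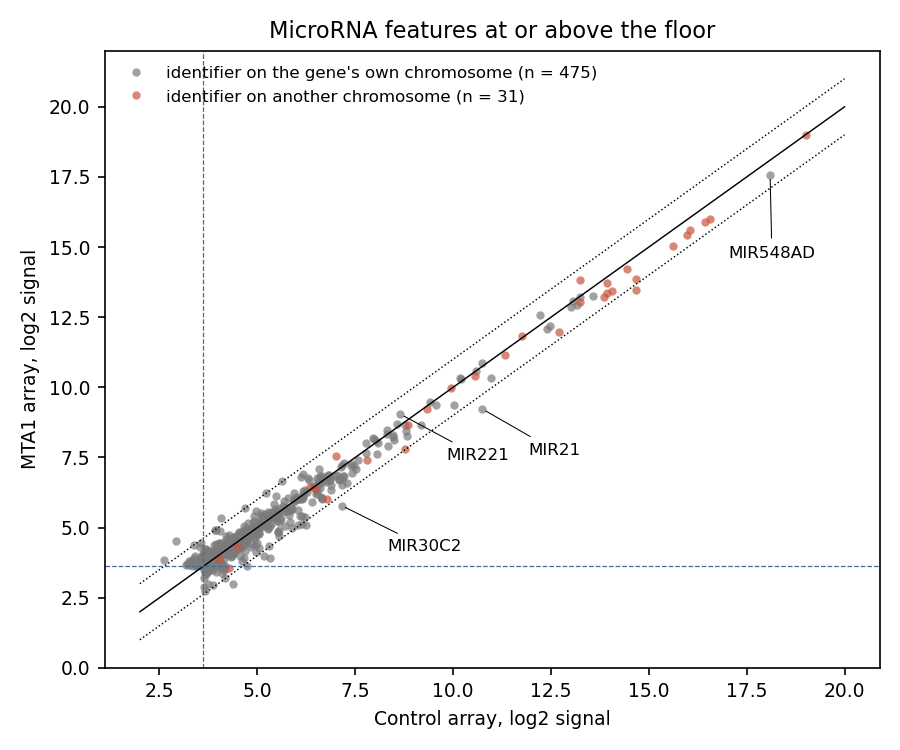
Log2 signal of microRNA features on the control (x axis) and MTA1 (y axis) arrays, 1 point per feature with repeated values drawn once. The solid line marks equal signals, the dotted lines a 2-fold difference and the dashed lines the floor of 3.62. Most points lie between the dotted lines, MIR21 and MIR30C2 lie below them, and most points above a signal of 12 are features whose identifier names another chromosome than that of the gene.

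A difference of 2-fold or more was seen in 15 of the 523 members, 6 higher and 9 lower on the MTA1 array. Among all transcript clusters at or above the floor the shares were 0.481% higher and 0.712% lower, against 1.15% and 1.72% of members. Among the 454 members at or above the floor on both arrays the counts were 3 higher and 8 lower, with background shares of 0.344% and 0.647%. At 1.5-fold the counts were 17 higher and 47 lower, and the background shares were 2.39% and 3.34%. The counts of 2-fold members change with scaling to the hybridisation controls and with a stricter floor, as given in the closing section.

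The lower side was led by MIR21, the gene of the oncogenic microRNA miR-21, whose log2 signal was 10.75 (control) and 9.23 (MTA1), 2.86-fold lower. This was the only 2-fold member on its own chromosome with a signal above 8 on either array. The gene lies on chromosome 17, within the span of VMP1, a membrane protein gene of autophagy. The array's cluster annotated with both VMP1 and MIR21, which names neither gene alone, stood at 15.60 and 15.44. That cluster was therefore 1.12-fold lower while the separate MIR21 feature was 2.86-fold lower. MIR590, whose mature strand shares the miR-21 seed, stood at 8.31 and 8.48.

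MIRLET7A2, which encodes let-7a on chromosome 11, stood at 5.32 (control) and 3.92 (MTA1), 2.65-fold lower, and pairs below keep this order. MIR30C2, which encodes miR-30c on chromosome 6, stood at 7.15 and 5.79, 2.58-fold lower. MIR30E, of the same seed and on chromosome 1, stood at 5.18 and 3.98, 2.29-fold lower. The miR-30 family is known for repressing Snail and other mesenchymal genes in epithelial cells. MIR31, the gene of miR-31 on chromosome 9, stood at 4.74 and 3.62, 2.17-fold lower, and its MTA1 signal was at the floor. MIR15B, which makes a relative of miR-16 known for targeting cyclins and BCL2, stood at 6.15 and 5.11, 2.05-fold lower. MIR2054, a microRNA with little known function, stood at 6.24 and 5.08, 2.23-fold lower. MIR190A stood at 4.37 and 2.99, with only the control value above the floor, and was at least 1.68-fold lower when counted against the floor. MIR548H2 was also past 2-fold, at 14.69 and 13.47, but its feature identifier names chromosome 3 and the gene lies on chromosome 16.

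The higher side held no member with a signal above 7 on either array. MIR548F5, on chromosome X, stood at 4.06 and 5.35, 2.43-fold higher. MIR4736, on chromosome 17, stood at 5.64 and 6.67, 2.05-fold higher. MIR190B, on chromosome 1, stood at 3.91 and 4.93, 2.02-fold higher, while its seed relative MIR190A was lower. These 3 reached the floor on both arrays. MIR4679-2, MIR649 and MIR633 were under the floor on the control array. Counted against the floor they were at least 1.88-fold, 1.72-fold and 1.16-fold higher. Just short of 2-fold were MIR4801, at 4.69 and 5.69, MIR502, at 5.23 and 6.22, and MIR1277, at 3.96 and 4.90.

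**Figure D2:**
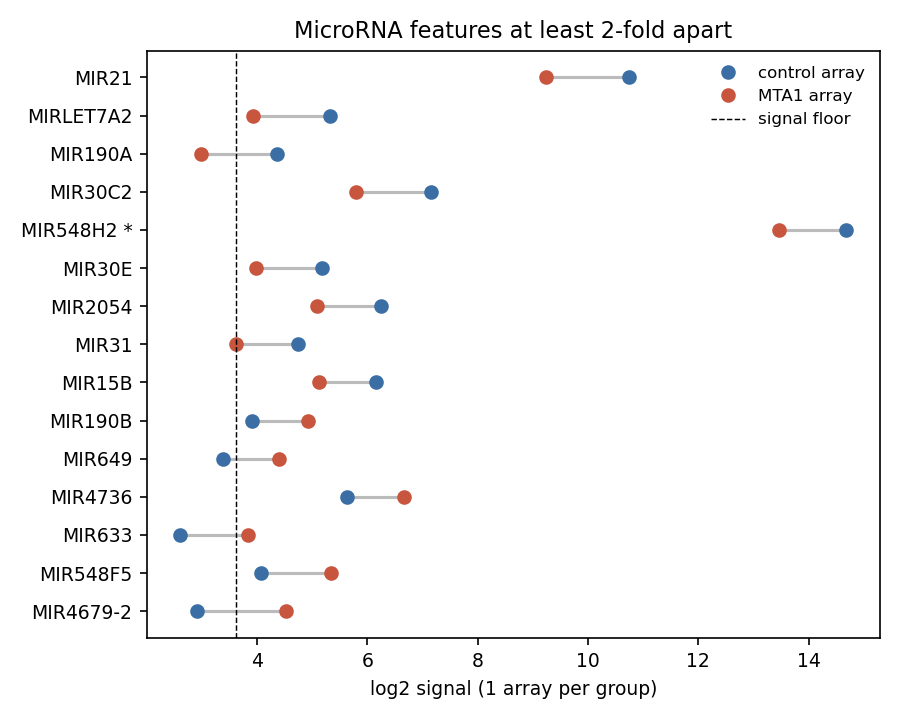
Log2 signals of the 15 microRNA features at least 2-fold apart, control array in blue and MTA1 array in red, 1 array per group and no error bars. The dashed line is the floor of 3.62, and the asterisk marks the feature whose identifier names another chromosome than the gene. MIR21 and MIR548H2 are the only features of this set with a signal above 8.

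Further lower members past 1.5-fold included MIR3193, at least 1.47-fold lower against the floor, MIR3140, at 5.29 and 4.34, MIR4637, at 6.04 and 5.10, and MIR4427, at 5.88 and 4.99. MIR184, whose control signal alone reached the floor, was at least 1.04-fold lower. Further higher members were MIR577, at least 1.79-fold higher, MIR4483, at 4.06 and 4.88, MIR2053, at least 1.60-fold higher, MIR553, at 6.17 and 6.91, MIR297, at 6.12 and 6.81, and MIR25, at 5.47 and 6.14. Most of these are microRNAs catalogued from sequencing and little is known of what they do. MIR25 belongs to the cluster in MCM7, a gene of the replicative helicase, and is a relative of the miR-17-92 cluster.

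Within most of the larger families, members lay on both sides of 0. In the let-7 family, 6 of 10 features reached the floor, 2 above 0 and 4 below, with a median of -0.16. Beside MIRLET7A2, MIRLET7D stood at 5.27 and 4.97, MIR98 at 4.97 and 4.76, MIRLET7A1 at 4.40 and 4.29, MIRLET7I at 5.28 and 5.35, and MIRLET7F1 at 5.57 and 5.69. Only MIRLET7A2 of these passed 1.5-fold. With MIR4458 and MIR4500, whose mature strands carry the let-7 seed, the seed group held 8 members, 6 of them below 0, and its median was -0.26. MIR4458 stood at 7.53 and 7.09, and MIR4500 at 7.48 and 7.18.

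In the miR-30 family, 3 of 6 features reached the floor, and MIR30C1 was above 0, at 4.39 and 4.64, beside the lower MIR30C2 and MIR30E. In the miR-15/16 family, MIR16-2 stood at 5.14 and 5.20 and MIR503 at 4.09 and 3.71, beside the lower MIR15B. Of 9 features of the miR-17-92 cluster and its paralogues, which are known for promoting proliferation, 3 reached the floor. They were MIR25, MIR92A2, at 3.42 and 3.99, and MIR19B2, at 3.43 and 3.76. The last 2 passed through the MTA1 array alone, so their choice fixed that they were above 0. Over these 3 the median was 0.58, and over all 9 features with no floor it was 0.13. The seed of miR-25 and miR-92a is also carried by the members MIR32 and MIR92B, both below 0. Over the 4 genes of this seed the differences ran from -0.64 to 0.67, with a median of 0.17. In the miR-181 family, MIR181A2 stood at 5.04 and 4.26 and MIR181B2 at 7.29 and 6.57, both past 1.5-fold lower, while MIR181D stood at 5.41 and 5.47 and MIR181B1 at 3.73 and 3.98. Both features of the miR-29 family, known for targeting collagens, were lower, MIR29A at 7.22 and 6.83 and MIR29B1 at 4.93 and 4.61. MIR221 and MIR222, which target the CDK inhibitor p27, went apart, MIR221 at 8.65 and 9.04 and MIR222 at 6.52 and 6.36. Among the miR-34 and miR-449 genes, which include that of p53-induced miR-34a, MIR34A stood at 4.70 and 4.49, MIR449B at 5.93 and 6.24, MIR449A at 4.18 and 3.53, and MIR449C at 3.17 and 3.67. MIR125A stood at 4.33 and 4.08 and MIR125B1 at 3.86 and 2.97. MIR26B, on chromosome 2, stood at 4.97 and 5.59 and was past 1.5-fold higher. MIR107 stood at 4.66 and 4.37, MIR454 at 5.86 and 5.63, and MIR148B at 3.66 and 3.32. MIR449A, MIR125B1 and MIR148B reached the floor on the control array only and MIR449C on the MTA1 array only, which fixed their direction.

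**Figure D3:**
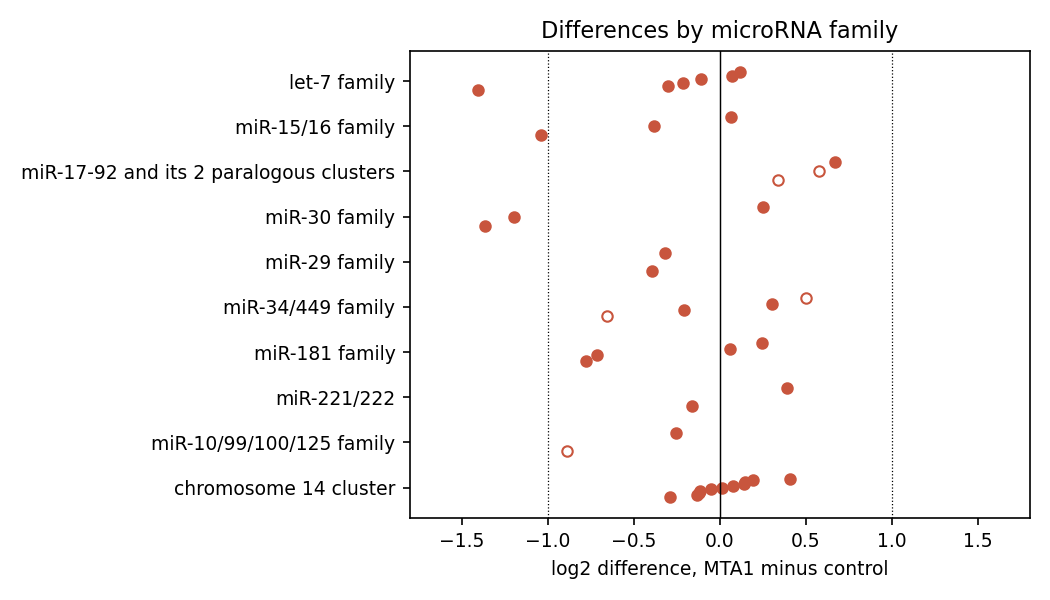
Log2 difference, MTA1 minus control, of each feature at or above the floor in 10 microRNA families, 1 point per feature. Filled points reached the floor on both arrays and open points on 1 array, and dotted lines mark a 2-fold difference. Points past -1 belong to the let-7, miR-15/16 and miR-30 families, each of which also has a member above 0.

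Lists known in epithelial, neuroendocrine or other cells had few to about 50% of their features at or above the floor, and the miR-200 family had none. Its 5 features lay under the floor, with signals of 2.22 to 3.50 in control cells and 2.24 to 3.38 in MTA1 cells. MIR375, a microRNA of neuroendocrine cells, stood at 3.04 and 3.02. Of 13 neural and neuroendocrine features, 2 reached the floor, MIR9-1 at 4.09 and 3.60 and MIR7-3 at 3.33 and 3.76. Of 15 features that mark muscle, blood, endothelial, pancreatic or stem cells, 3 reached it, both features of MIR486-1, at 4.88 and 4.98 and at 3.77 and 3.89, and MIR373, at 3.77 and 3.58. Of 18 features known in epithelial, lung and mesenchymal cancers, 9 reached the floor. Apart from MIR21 and MIR31 they were MIR365A, at 8.47 and 8.32, MIR193B, at 6.18 and 6.17, MIR193A, at 5.60 and 5.30, MIR210, at 4.49 and 4.53, MIR138-1, at 4.43 and 4.47, MIR218-1, at 4.02 and 3.89, and MIR365B, at 3.28 and 3.78. Choice through 1 array fixed the direction of MIR9-1 and MIR373 (control array) and of MIR7-3 and MIR365B (MTA1 array). The imprinted cluster of chromosome 14 had 11 of 50 features at or above the floor, with differences from -0.29 for MIR376A2 to 0.41 for MIR539 and a median of 0.013. The placental cluster of chromosome 19 had 2 of 35, MIR519D and MIR518C. No feature of the miR-23/27/24 clusters carried a single symbol.

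Some mature microRNAs are made from more than 1 gene, each measured by its own feature. Of 14 mature sequences encoded by 2 or more member genes on their own chromosomes, 9 had features above and below 0. The sequence of miR-30c-5p given above is encoded by MIR30C1, with a difference of 0.25, and by MIR30C2, with -1.37. That of let-7a-5p is encoded by MIRLET7A1, with -0.11, and MIRLET7A2, with -1.41. The miR-181b-5p genes MIR181B1 and MIR181B2 differed by 0.25 and -0.71. The miR-196a-5p genes MIR196A1 and MIR196A2, which lie in HOX clusters, stood at 5.50 and 5.24 and at 4.27 and 4.73. Both miR-1285-3p genes were lower, MIR1285-1 at 8.48 and 8.12 and MIR1285-2 at 10.02 and 9.38. Of 45 seeds shared by 2 or more members, 29 had members on both sides of 0. Since 53.3% of all members were below 0, unrelated members would often lie on both sides too, and these counts, like those of neighbours, are a description. Members that reached the floor on 1 array only, such as MIR365B, are counted in them.

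Genes that lie beside each other were described in the same way. RefSeq placed 60 member genes in 23 groups with gaps of at most 10 kb. Neighbours on the same strand are often transcribed as 1 precursor, but the groups were made by distance and did not require it. MIR4516 and MIR3180-5 lie on opposite strands, as do MIR3910-1 and MIR3910-2, so the counts below are of neighbours and not of shared precursors. Members lay on both sides of 0 in 14 groups, all were above 0 in 5 and all below in 4. MIR15B and MIR16-2, neighbours on chromosome 3, differed by -1.04 and 0.06. MIR30E and MIR30C1, neighbours on chromosome 1, differed by -1.19 and 0.25. MIR502 and its chromosome X neighbours MIR500A and MIR500B differed by 0.99, 0.05 and -0.45. The 4 groups below 0 were MIR181A2 and MIR181B2, at -0.78 and -0.71, MIR29A and MIR29B1, at -0.39 and -0.32, MIR374A and MIR545, at -0.76 and -0.35, and MIR365A and MIR193B, at -0.15 and -0.01. The 5 groups above 0 were MIR92A2 and MIR19B2, at 0.58 and 0.33, MIR1912 and MIR1264, at 0.41 and 0.37, MIR4516 and MIR3180-5, at 0.18 and 0.05, MIR657 and MIR1250, at 0.17 and 0.16, and MIR518C and MIR519D, at 0.05 and 0.02. MIR374A, MIR92A2, MIR19B2, MIR1912 and MIR518C reached the floor on 1 array only, which fixed their direction.

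A host gene on the same strand was found in RefSeq for 266 of 475 distinct members on their own chromosome. Of these hosts, 210 pairs had a host with a single-symbol cluster and 179 pairs had one at or above the floor, over 169 hosts. The microRNA feature and its host had the same sign of difference in 100 pairs and opposite signs in 78, and PANK1, the host of MIR107, had a difference of exactly 0. Over the 179 pairs Pearson's r of the differences was 0.15 and Spearman's rho 0.17, a description over features that share the same 2 arrays and in some cases a host. The median size of the difference was 0.21 for the microRNA features and 0.12 for the hosts.

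In 28 pairs the microRNA feature was past 1.5-fold. None of the hosts of these 28 was, and over all 179 pairs 3 were. The 28 were picked for a large microRNA difference, so their smaller host differences are a description. MIR30E lies in NFYC, a CCAAT-binding factor gene, which stood at 7.54 and 7.42. MIR15B lies in SMC4, a condensin gene, which stood at 12.51 and 12.27. MIRLET7A2 and MIR125B1 share the long noncoding host MIR100HG, which stood at 5.54 and 5.20, lower like both microRNA features. MIR125B1 reached the floor on the control array only, which fixed its direction. MIR31 was lower and its host MIR31HG higher, at 8.06 and 8.50. MIR190A lies in TLN2, a talin gene, which stood at 6.59 and 6.74. MIR25 was higher and its host MCM7 lower, at 9.42 and 9.21. MIR502 lies in CLCN5, a chloride transporter gene, at 6.63 and 6.67, and MIR26B in CTDSP1, a phosphatase gene, at 5.72 and 5.72. FTX, the noncoding host of MIR374A, MIR545 and MIR421, stood at 9.17 and 8.72, and all 3 microRNA features were lower too, MIR421 at 8.79 and 8.44. The direction of MIR374A was fixed by its choice, since only its control signal reached the floor. In 3 pairs the host was past 1.5-fold lower. They were ZNF141 with MIR571, TRIB2 with MIR3125 and LINGO2 with MIR876, whose microRNA features differed by 0.32, -0.17 and 0.25.

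**Figure D4:**
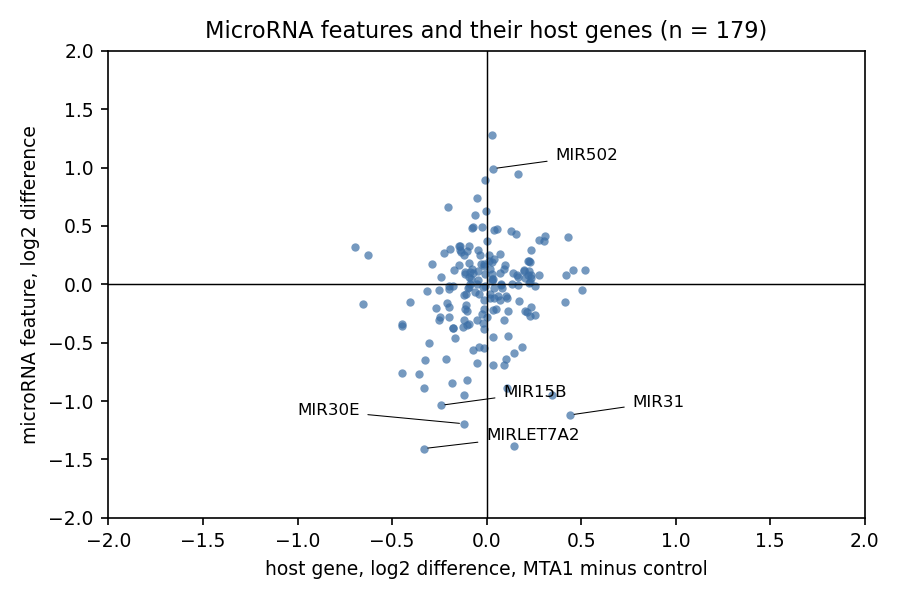
Log2 difference, MTA1 minus control, of the host gene (x axis) and of the microRNA feature within it (y axis), 1 point for each of 179 pairs. Both axes have the same range, and the points spread further along the y axis than along the x axis, with 100 pairs on the same side of 0 in both.

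The brightest members were features named for the miR-548 family, a large primate-specific family derived from a short transposable element present in many copies. Of 25 members with a mean signal of 12 or more, 17 carried MIR548 symbols. For 16 of the 25 the chromosome in the feature identifier was not that of the gene in RefSeq. Over all members, 475 distinct features matched the chromosome of their gene and 31 did not. Another 17 repeated both values of a feature with the same symbol, 16 of them on alternative haplotype contigs of chromosome 6 and 1 on the Y copy of MIR3690. Of the 31 features on another chromosome, 25 carried MIR548 symbols, and the other 6 were named MIR4454, MIR1256 or MIR4444-1. The symbol of these 31 features therefore goes against their place, and they are described by their identifier and not as the named gene.

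The MIR548 features are given by place, and since their probes differ, the size of a gap in signal between features is not read. The 25 on another chromosome had a median mean signal of 13.5, and none was under 6.39. The 27 on the chromosome of their gene had a median of 4.71, and only MIR548AD, on chromosome 2, at 18.10 and 17.57, was above 8. For 12 symbols both kinds were members, giving 13 pairs. MIR548F1 on its own chromosome 10 stood at 3.82 and 3.68, and the chromosome 1 feature with that symbol at 15.62 and 15.02. MIR548F3 on its own chromosome 5 stood at 3.79 and 3.92, and the chromosome 7 feature at 14.05 and 13.45. MIR548H2 on its own chromosome 16 stood at 6.65 and 6.03, and the chromosome 3 feature at 14.69 and 13.47.

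**Figure D5:**
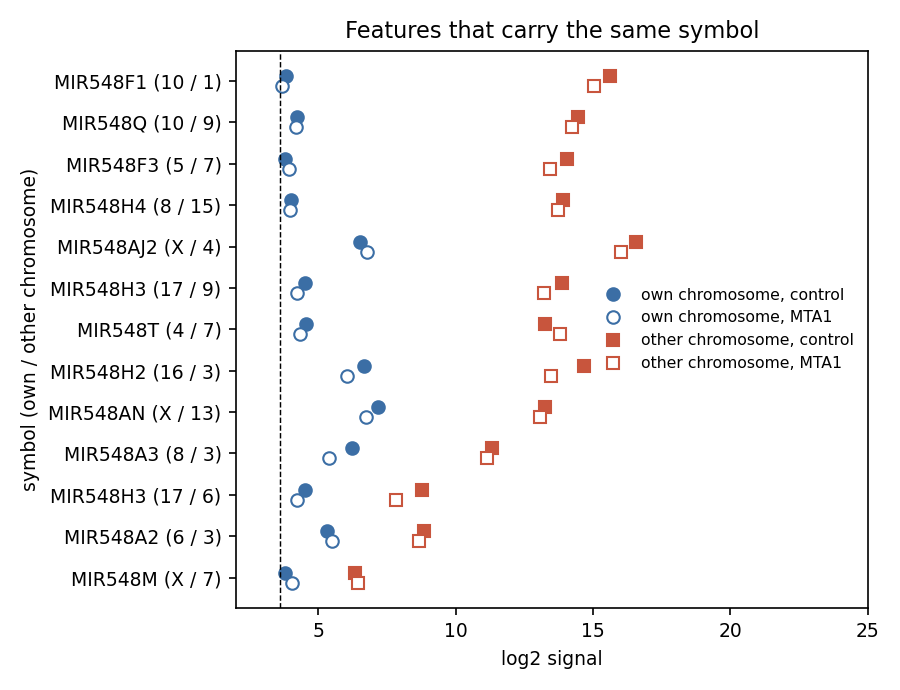
Log2 signals of pairs of features that carry the same MIR548 symbol, with circles for the feature on the chromosome of the gene and squares for the feature on another chromosome, filled for the control array and open for the MTA1 array. The dashed line is the floor of 3.62. Of the features shown, the one named MIR548H2 on chromosome 3 has the widest gap between its arrays.

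Bright features on another chromosome carried the symbols MIR548G, MIR548AJ2 and MIR548X, but these features are not described as the named genes. The named genes themselves make an identical 5′ strand.
miR-548g-5p: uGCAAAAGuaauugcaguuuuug
miR-548aj-5p: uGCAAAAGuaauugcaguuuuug
miR-548x-5p: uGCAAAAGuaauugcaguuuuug
miR-548ad-3p: gAAAACGAcaaugacuuuugca
The last is of MIR548AD, the bright feature on its own chromosome. The feature named MIR548X, with a chromosome 16 identifier, stood at 12.70 and 11.98.
The features named MIR548G, MIR548AI and MIR548AJ2, on chromosomes 3, 14 and 4 by their identifiers, stood at 15.99, 16.44 and 16.57 on the control array. On the MTA1 array they stood at 15.43, 15.88 and 16.02. Their differences were all -0.56 and were equal within 0.0001. Whether these features share probes was not tested.

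The bright MIR548 features leaned to the lower side. Of the 25 on another chromosome, 21 were below 0 and the median difference was -0.24. Of the 27 on their own chromosome, 15 were below 0 and 12 above, with a median of -0.04. Among all 25 members with a mean signal of 12 or more, 22 were below 0 and the median was -0.33, while over the 1792 transcript clusters of such signal the median was 0.007 and 48.3% were below 0. The features named MIR548G, MIR548AI and MIR548AJ2 on another chromosome, equal in difference, are in both the 21 and the 22. These counts are therefore of features and not of separate measurements. Among members of this brightness on their own chromosomes, MIR4737 stood at 13.58 and 13.26, MIR4466 at 12.40 and 12.08, MIR4521 at 12.49 and 12.19, MIR5047 at 13.23 and 13.21, MIR1268A at 13.05 and 13.08, and MIR622 at 12.23 and 12.59.

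Differences of microRNA features were wider than those of protein-coding genes and about as wide as those of small nucleolar RNAs. The latter are another class of short transcripts, counted here together with small Cajal body RNAs. The middle 50% of differences spanned -0.23 to 0.17 for the members, -0.12 to 0.09 for 12416 protein-coding clusters and -0.17 to 0.23 for 210 small nucleolar RNA features, all at or above the floor. The share past 1.5-fold in either direction was 12.2% of members, 2.50% of protein-coding clusters and 11.4% of small nucleolar RNA features. The medians of the 3 classes were -0.016, -0.012 and 0.016. Members with a mean signal of 7 or more had a median of -0.19, and 52 of 73 were below 0. Without repeats and features on another chromosome that median was -0.15, with 31 of 48 below 0. Protein-coding clusters of that signal had a median of -0.02 and small nucleolar RNA features 0.02. The sources used here do not give the number of probes per feature.

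Over 369 members on their own chromosome with a hairpin in RefSeq, Spearman's rho of the difference with the share of G and C was -0.06, a description over features of the same 2 arrays. The median difference was 0.12 for 53 hairpins with under 35% G and C, of which 28 were above 0 and 25 below. That median was -0.002 from 35% to 45%, -0.01 from 45% to 55%, 0.003 from 55% to 65% and -0.02 for 59 with 65% or more.

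The genes that make and use microRNAs were close to level. Of the 11 measured nuclear processing and export genes, none was past 1.5-fold, all 11 were below 0 and the median was -0.07. DROSHA, the nuclear nuclease, stood at 13.25 and 13.18, XPO5, which exports hairpins, at 9.63 and 9.60, and ERH, a partner of the processing complex, at 12.70 and 12.38. SRSF3, a splicing factor that marks hairpins for cutting, stood at 12.14 and 11.96. Of 15 cytoplasmic processing and silencing genes, 12 were below 0 and 3 above, with a median of -0.05. The 3 above were TNRC6C, at 3.99 and 4.11, DDX6, at 11.40 and 11.41, and CNOT1, at 14.29 and 14.31. DICER1 stood at 9.89 and 9.79, its partner TARBP2 at 5.01 and 4.96, the deadenylase adaptor PAN3 at 8.54 and 8.25, EIF4E2, a translational repressor that binds message caps, at 7.29 and 7.13, and the silencing scaffold TNRC6B at 9.23 and 9.11. Of 12 tailing and decay genes at or above the floor, 11 were below 0, with a median of -0.08. ADARB1, an adenosine deaminase that edits RNA duplexes, was the only one past 1.5-fold, at 8.50 and 7.76, 1.67-fold lower. XRN1, an exonuclease, stood at 10.09 and 9.88, ADAR at 11.45 and 11.24, TSN, a subunit of an RNA nuclease, at 10.23 and 10.06, and the deadenylase PARN at 10.48 and 10.34. LIN28A and LIN28B, which block let-7 processing, were under the floor on both arrays, at 3.50 and 3.47 and at 3.18 and 2.92. Over all transcript clusters at or above the floor 54.6% were below 0. The Argonaute genes AGO1 to AGO4 and DGCR8 had no cluster with a single symbol and are not described.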

How the data were processed

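Total RNA of 2 cultures was hybridised, 1 array each. The log2 signals are as deposited; the submitters' processing notes name RMA for them, with no version, and no further transformation is named. Values were used as deposited, and 1 transcript cluster without a control value was left out. Platform annotation gave 23781 clusters 1 symbol, 1543 several and 42204 none; clusters with several symbols named no gene. Of the members, 517 matched a RefSeq table (GRCh38.p14) by gene identifier and all 523 by symbol. That table gave chromosomes, hosts (the shortest gene on the same strand spanning the microRNA gene) and neighbours, and no coordinates are printed because no build is named for the array. The chromosome of a feature was read from its identifier. A gene other than a microRNA was represented by its brightest single-symbol cluster. Members and lists were chosen with earlier results of these data known. Named members came from the 12 largest differences in each direction, the 12 brightest, up to 4 per family and those beside the floor. Members of groups of 3 or more, hosts of named members and up to 6 genes per processing list were also drawn on. Not all of these were named, among them MIR548D1, the brightest member, and others were added after their values were seen. The counts past 2-fold and the medians were tested on simulated data, with changes placed only in features well above the floor, unlike many members. The steps for hosts, chromosomes, seeds and neighbours were not tested in this way. Alternatives changed scaling, floor, unit, symbol and host rule. The number of arrays limits the precision. Python 3.11.15, numpy 2.4.6, pandas 2.3.3, scipy 1.17.1, matplotlib 3.10.9 and R 4.3.3 with limma 3.58.1 were used.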

Additional observations from a re-analysis of the deposited data

How the results depend on the processing

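No paired analysis was possible because each group has 1 array and no test was run. Quantile normalisation, loess and median centring left the counts of members past 2-fold and 1.5-fold within 1.5 times, and moved the median of the cytoplasmic processing genes to 0.00167 after quantile normalisation and -0.00930 after loess. The bioB, bioC, bioD and cre controls had a mean difference of 0.24 between arrays, and setting it to 0 shifted the median of all transcript clusters to -0.24. Of 535 members, 2 were then higher and 27 lower at 2-fold and 10 and 102 at 1.5-fold, where all clusters had shares of 0.204%, 1.62%, 0.845% and 10.2%, with a median of -0.28 and 83.2% below 0; 77.8% of host pairs shared a sign, and the 3 processing lists had medians of -0.32, -0.30 and -0.32. With both arrays required at the floor, 3 members were 2-fold higher. With the floor at percentile 75, 158 members remained, 1 higher and 5 lower at 2-fold and 6 and 25 at 1.5-fold, where all clusters had shares of 0.546%, 0.914%, 2.42% and 3.81%. Their median was -0.14 with 66.5% below 0, against -0.037 and 57.9% over all clusters at that floor, and 63.4% of host pairs shared a sign. The median over members was 0.003 after quantile normalisation, with 49.1% below 0. Of the 15 members past 2-fold, MIR15B no longer was after quantile normalisation (-0.98) and loess (-0.99), MIR190B (0.99) and MIR649 (just under 1) after median centring, and MIR633 (0.98), MIR4736 (0.79), MIR649 (0.78) and MIR190B (0.77) with the controls set to 0. MIR4801 and MIR502 passed 2-fold after quantile normalisation, both at 1.05, and after loess, at 1.04 and 1.03. No alternative left out an array, since none would remain in its group. Counting only features on their own chromosome, an alternative chosen after the data were seen, left 6 higher and 8 lower at 2-fold.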
